A study of Mus musculus with 8 samples.

Results

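Interferon-stimulated genes are the genes that cells switch on when interferon reaches them, and 48 of them, chosen by gene symbol, were followed in mouse haematopoietic stem cells (HSCs), from which all blood cells descend. All 48 had a row among the 55487 gene rows of each deposited table. Bulk RNA-seq was made with Smart-seq2, a full-length cDNA protocol for small numbers of sorted cells. The labels name 4 libraries miR652-KD, in which the microRNA miR-652 was knocked down, and 4 libraries NTC, the non-target control. The series title concerns the pseudouridine synthase PUS10 in aged HSCs. The labels state neither how the knockdown was made nor the sort markers, strain or age of the mice. They also do not say whether replicates came from separate animals, so p-values here cover library-to-library spread alone, part of which could be technical. Libraries held 14677644 to 19894821 gene counts in miR652-KD and 14017632 to 16763709 in NTC.

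Interferons are secreted alarm proteins. Type I interferons bind the IFNAR receptor, and its kinases JAK1 and TYK2 activate a complex that contains STAT2 and IRF9 and binds the interferon-stimulated response element (ISRE) in target promoters. Type II interferon (interferon gamma) acts through its receptor IFNGR and the gamma-activated site (GAS), and IRF1 also binds ISRE-like sequences. Stem cells are known to keep a set of these genes switched on without infection, and prolonged interferon drives dormant HSCs into cycle.

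The ISRE was looked for in the promoters, since it is the DNA element that defines the response. RefSeq promoter sequences (GRCm38.p6, the mm10 build, 250 bases before to 50 bases after the start) were matched by symbol for 37 members. The search letters were GAAA, 2 bases of any kind and GAAA for the ISRE, and TTC, 3 bases of any kind and GAA for the GAS, on both strands, with overlapping matches counted. An ISRE match was present in 19 of the 37 members (51.4%) and in 3.99% of all 27025 genes with a promoter sequence. A GAS match was present in 11 of the 37 (29.7%) and in 9.55% of all genes. Both were found in 6 members, and 13 had neither in this window. A match describes letters and does not show binding. The promoters of Isg15 and Ifit3 are shown whole because the first holds 3 overlapping ISRE matches and the second belongs to the member with the largest difference between the groups. Capitals mark the ISRE matches, and each sequence runs 5′ to 3′ along its gene.
Isg15 (chr4:156200769-156201068, minus strand): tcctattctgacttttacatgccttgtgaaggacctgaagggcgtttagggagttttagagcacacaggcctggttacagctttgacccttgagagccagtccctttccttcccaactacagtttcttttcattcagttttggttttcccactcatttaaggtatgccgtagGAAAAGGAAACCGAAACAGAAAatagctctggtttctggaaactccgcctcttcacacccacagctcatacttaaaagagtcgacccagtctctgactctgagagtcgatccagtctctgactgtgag
Ifit3 (chr19:34583279-34583578, plus strand): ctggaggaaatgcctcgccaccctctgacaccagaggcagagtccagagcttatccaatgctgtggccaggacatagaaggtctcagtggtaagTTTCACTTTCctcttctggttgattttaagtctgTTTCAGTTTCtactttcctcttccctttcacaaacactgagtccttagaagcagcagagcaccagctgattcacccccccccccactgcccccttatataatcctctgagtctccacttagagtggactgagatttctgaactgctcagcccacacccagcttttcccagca

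Shorter windows of 30 bases around a match show how alike these elements are between members whose levels or differences are described below. The immunity-related GTPase (IRG) genes Igtp and Irgm2 share the same ISRE letters and the same bases after them, and Ifit3b carries the same 30 bases as Ifit3 around its first match.
Ifit3b (chr19:34607759-34607788, plus strand): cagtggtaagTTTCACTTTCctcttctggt
Gbp2 (chr3:142620594-142620623, plus strand): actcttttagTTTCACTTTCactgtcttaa
Gbp7 (chr3:142530273-142530302, plus strand): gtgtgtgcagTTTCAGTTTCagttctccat
Igtp (chr11:58199512-58199541, plus strand): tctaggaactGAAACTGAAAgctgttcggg
Irgm2 (chr11:58214903-58214932, plus strand): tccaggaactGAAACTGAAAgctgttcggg
Bst2 (chr8:71537577-71537606, minus strand): ccaggaaaatGAAACTGAAAggctgcagtt
Ddx58 (chr4:40239804-40239833, minus strand): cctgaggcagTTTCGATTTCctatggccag
In Gbp7, Igtp and Irgm2 a GAS match lies upstream of the ISRE match, and in Bst2 a GAS match overlaps the first of 2 ISRE matches. In Gbp7 the first GAS match starts 106 bases before the annotated start and the ISRE match 53 bases before it.

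**Figure D1:**
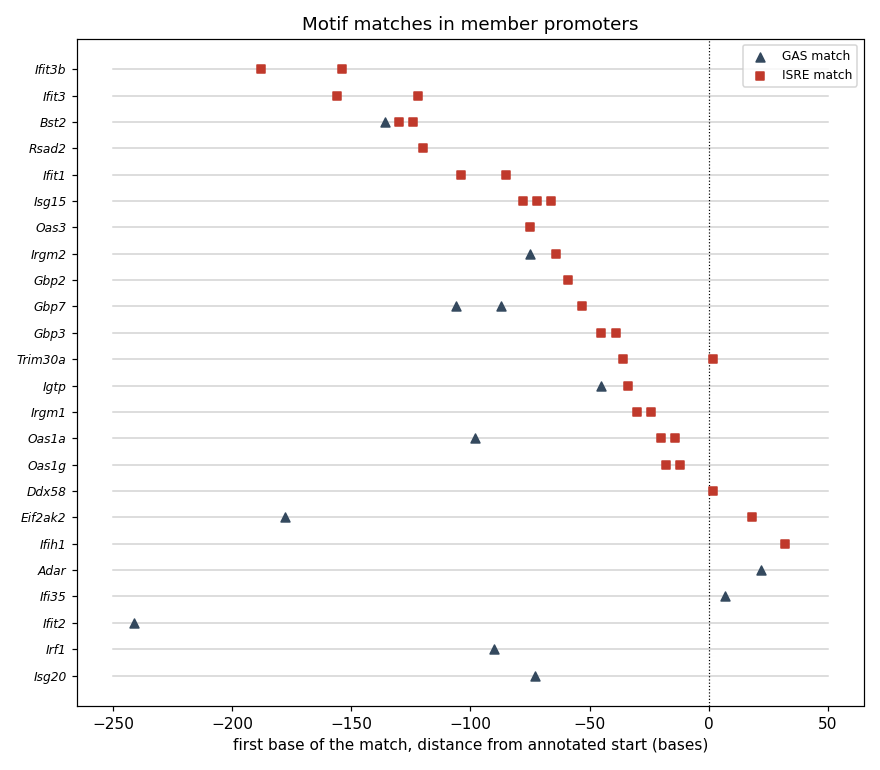
Positions of ISRE matches (squares) and GAS matches (triangles) in the promoters of the 24 members with either motif, as the distance in bases of the first matched base from that promoter's own annotated start. Most ISRE matches lie before the start, from 188 bases before it in Ifit3b to 32 bases after it in Ifih1.

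Most of the members were expressed in these libraries, whose labels name no interferon treatment. CPM here relate a gene's counts to the library's total of counts assigned to genes, on the usual CPM scale. A mean of at least 10 CPM over the 8 libraries, called basal below, was reached by 43 members, with Oas1g the lowest at 11.3 CPM. The other 5 had means between 1 and 10 CPM: Isg15 at 7.72, Mx2 at 4.05, Ifit3 at 2.84, Mx1 at 2.40 and Ifit3b at 1.40 CPM. No member had a mean under 1 CPM, and 46 had counts in every library. Together they took 0.403% ± 0.0073 of gene counts in miR652-KD and 0.373% ± 0.0325 in NTC (SD, n = 4 each).

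Levels can be compared between genes only per length, so CPM were divided by kilobases of merged exon. On that scale 38 of 48 members lay above the median of the 14360 genes tested, and 7 lay above the 90th percentile. Lgals3bp, which encodes a secreted glycoprotein that binds galectins, led with a level of 181 CPM per kilobase. Bst2 (tetherin, which holds budding virus at the cell surface) followed at 143, Ifi27 at 142, the IRG gene Ifi47 at 85.8, Igtp at 77.2 and the exonuclease gene Isg20 at 52.3 CPM per kilobase. Members used as textbook readouts of interferon stood lower: Isg15 at 10.2, Rsad2 at 10.3, Ifit1 at 10.8, Mx2 at 1.12 and Mx1 at 0.635 CPM per kilobase. The basal line at 10 CPM took no account of length. Adar, above that line, stood at 3.36 CPM per kilobase, lower than Isg15, which was below it. The defective Mx1 allele of most laboratory mouse strains is general background, and the strain of these mice is not given.

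**Figure D2:**
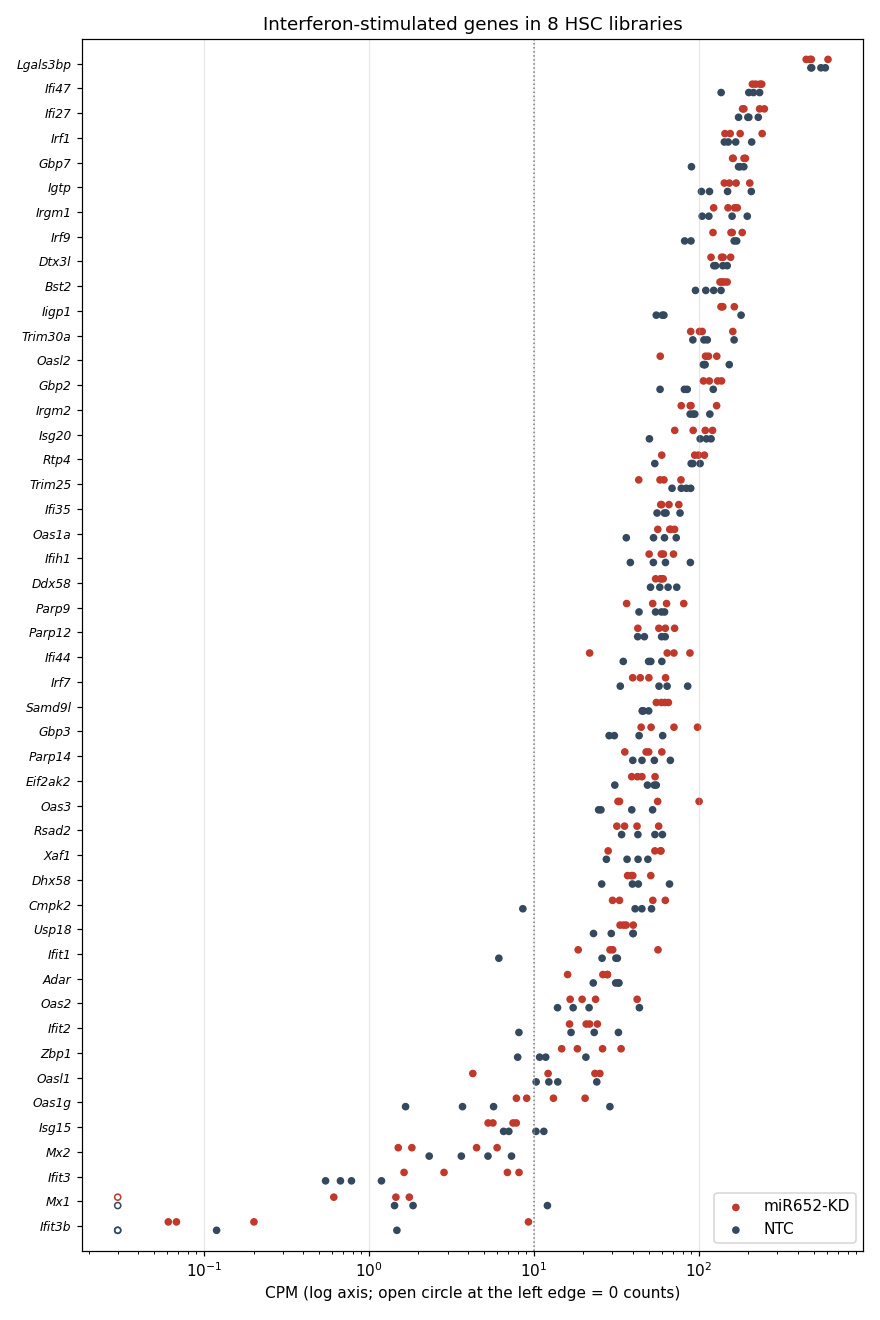
CPM (log axis) of the 48 interferon-stimulated genes in each library, ordered by mean, with 4 miR652-KD points above 4 NTC points for each gene and a dotted line at 10 CPM. The points of the 2 groups interleave for nearly all genes, and Oas1g, with a 17.3-fold range, spreads most among genes whose mean is above the line.

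None of the 47 members that passed the filter on low counts was called between miR652-KD and NTC. In bulk RNA, fewer cells of a type and less RNA per cell cannot be told apart. Called means an adjusted p below 0.05 (edgeR's quasi-likelihood test, adjusted by Benjamini-Hochberg over all 14360 genes), and 0.0418% of all genes, 6 in number, were called, 0.0279% higher and 0.0139% lower in miR652-KD. The smallest adjusted p among the members was 0.779. At an unadjusted p below 0.05, 4 of 47 members (8.51%) were found, against 5.99% of all genes tested. All 4 were higher in miR652-KD, against 2.9% of all genes, and 0 were lower, against 3.09%. Those 4 were Ifit3, Samd9l, Gbp2 and Zbp1. Values were above 0 for 31 members and below 0 for 16, with a median log2 difference of 0.10, beside a median of 0.00 over all genes tested, of which 49.5% were above 0. Among the 43 basal members the median was also 0.10 and 30 were above 0. Among the 4 tested members below 10 CPM it was -0.42, with Ifit3 the only one above 0. The 18 tested members with an ISRE match had a median log2 difference of 0.19, with 11 above 0, and the 18 with a promoter but no match 0.08, with 13 above 0. For the GAS the medians were 0.06 over 11 members with a match and 0.15 over 25 without. DESeq2 called 0 members too, with 6 of 47 at an unadjusted p below 0.05, beside 1522 of 22221 genes in that fit. The 22221 include low-count genes that the filter applied to the members removed, so the shares have unlike bases. Of the 6, Gbp3 (0.69) and the 4 above were higher in miR652-KD and Trim25 was lower (-0.41), as log2 differences.

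**Figure D3:**
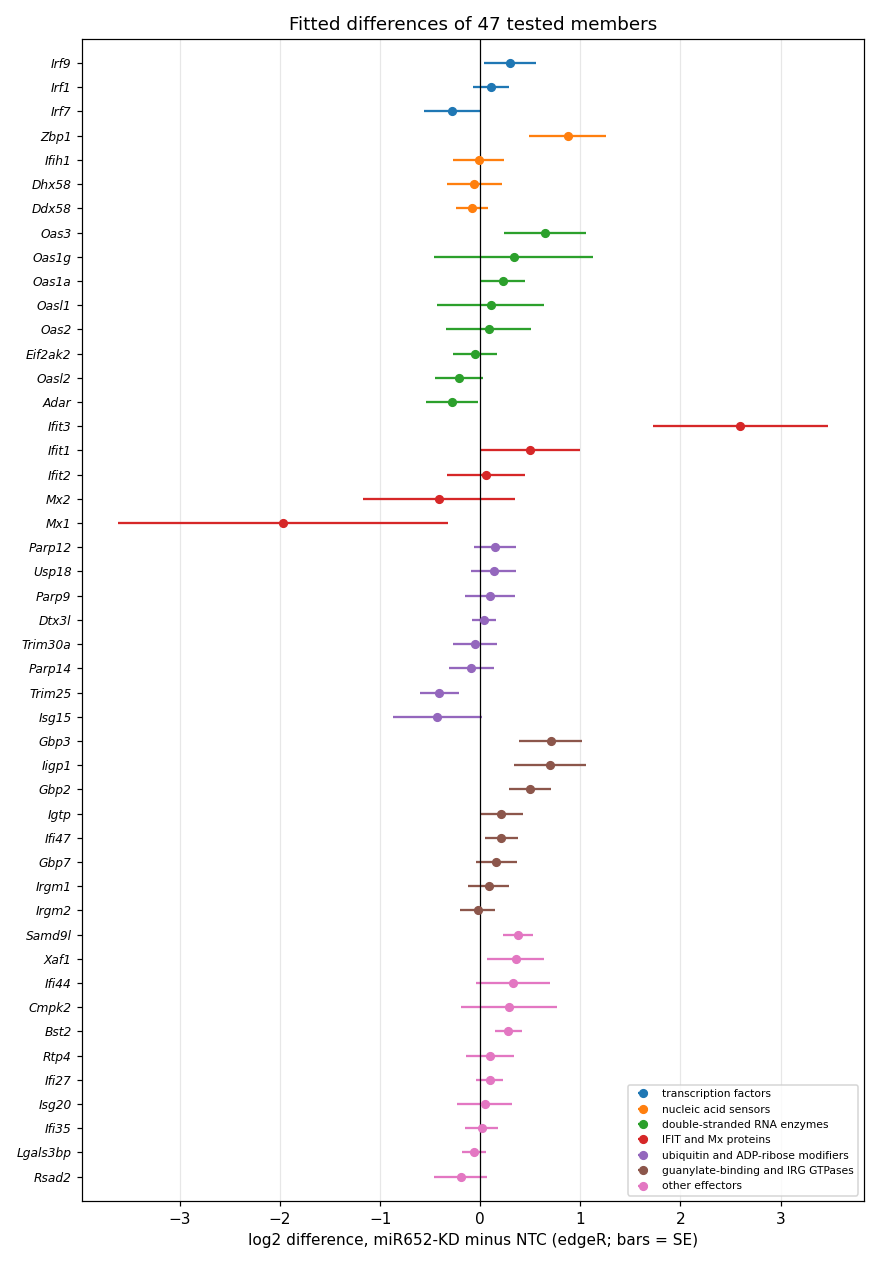
Log2 difference (miR652-KD minus NTC, edgeR, bars are SE) of the 47 tested members, coloured by role. Ifit3 at 2.60 and Mx1 at -1.97 lie farthest from 0 and have the widest bars, and most others lie between -0.43 and 0.70.

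The transcription factors that carry the signal were well expressed and did not pass the test. Irf1, a primary interferon target that activates further genes, stood at 179, 243, 155 and 144 CPM in the miR652-KD libraries, in replicate order here and below, against 168, 143, 209.8 and 151 CPM in the NTC libraries. Irf9, the DNA-binding subunit of the complex at the ISRE, stood at 159.8, 184, 157 and 122 CPM in miR652-KD, against 89.9, 170.1, 164 and 82.3 CPM in NTC. Irf7, the factor that amplifies type I interferon production, stood at 63.0, 49.9, 44.3 and 39.8 CPM in miR652-KD, against 85.8, 57.5, 64.4 and 33.5 CPM in NTC. The groups overlapped in each, and NTC replicate 4 was lowest of all libraries in Irf9 and Irf7. Log2 differences were 0.11 (SE 0.18) for Irf1, 0.30 (SE 0.26) for Irf9 and -0.28 (SE 0.28) for Irf7, with edgeR adjusted p of at least 0.989. Leaving out single libraries gave 0.14 (without NTC replicate 4) to 0.49 (without NTC replicate 2) for Irf9, and -0.47 (without NTC replicate 4) to -0.08 (without NTC replicate 1) for Irf7.

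Of the 4 sensors of foreign nucleic acid, the RNA helicase genes had log2 differences near 0 and Zbp1 the largest. Ddx58 (RIG-I, which senses short double-stranded RNA ends) stood at 54.8, 58.7, 61.0 and 59.4 CPM in miR652-KD, against 58.1, 51.1, 65.3 and 73.7 CPM in NTC. Ifih1 (MDA5, which senses long double-stranded RNA) stood at 70.4, 50.1, 59.4 and 61.1 CPM in miR652-KD, against 38.5, 53.1, 62.9 and 89.1 CPM in NTC. Both genes overlapped between groups, the NTC values spread more widely, and the log2 differences were -0.08 (SE 0.16) and -0.02 (SE 0.26). Dhx58 (LGP2, which modulates both helicases) averaged 41.8 ± 6.41 CPM in miR652-KD and 43.8 ± 16.9 CPM in NTC (SD, n = 4). Zbp1, a sensor of Z-form nucleic acid that can trigger necroptosis, stood at 33.9, 14.8, 18.4 and 26.1 CPM in miR652-KD, against 20.7, 7.99, 10.9 and 11.8 CPM in NTC. NTC replicate 1 lay among the miR652-KD values and the other 3 NTC libraries lay below them all. Its log2 difference of 0.87 (SE 0.39) had an unadjusted p of 0.0478 and an adjusted p of 0.833 (edgeR).

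Enzymes that act on double-stranded RNA gave 5 values above 0 and 3 below among 8 members, with a median of 0.09. Eif2ak2 (PKR, which halts translation) stood at 45.3, 39.3, 42.6 and 54.4 CPM in miR652-KD, against 55.4, 48.9, 31.0 and 53.8 CPM in NTC. Adar, the adenosine deaminase that edits double-stranded RNA, stood at 28.0, 16.1, 27.9 and 26.3 CPM in miR652-KD, against 31.4, 32.6, 32.9 and 23.0 CPM in NTC. Both overlapped, with log2 differences of -0.05 (SE 0.22) and -0.28 (SE 0.26). Part of the Adar annotation, 16.8% of its exon bases, lies within exons of Chrnb2, where reads are ambiguous. The OAS genes make or resemble the synthetases whose product activates RNase L, and all 6 in the list lie on chromosome 5. Oasl2 was the most abundant of them in CPM, at 103.0 ± 30.7 in miR652-KD and 119.6 ± 22.5 in NTC (SD, n = 4). Oas3 reached 101 CPM in miR652-KD replicate 1, and its other values, 56.4, 33.1 and 32.4 CPM in miR652-KD, lay near the 24.8, 52.6, 39.3 and 25.6 CPM of NTC.

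Oas1a and Oas1g share 57.6% and 45.7% of their 50-base stretches with other genes, chiefly each other and Oas1b, so reads could be split between them. Oas1g had 9.06, 20.5, 13.2 and 7.85 CPM in miR652-KD, against 3.70, 5.71, 1.67 and 28.97 CPM in NTC, a 17.3-fold range over the 8 libraries. Oas1a ran from 56.5 to 71.5 CPM in miR652-KD and from 36.4 to 73.1 CPM in NTC. Summed, the pair stood at 80.5, 77.0, 80.9 and 74.7 CPM in miR652-KD, against 57.0, 67.8, 74.8 and 65.4 CPM in NTC. The sum varied far less than Oas1g alone, and only NTC replicate 3 reached the miR652-KD range. Its log2 difference was 0.24 (SE 0.15, edgeR adjusted p = 0.925).

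The IFIT proteins, which bind viral RNA lacking the host's cap marks, included the member with the largest difference. Ifit3 (ENSMUSG00000074896, chromosome 19, 34583531 to 34588731, mm10), whose promoter is printed above, had 24, 47, 162 and 120 counts in miR652-KD replicates 1 to 4, against 10, 11, 20 and 8 counts in NTC replicates 1 to 4. That is 1.64, 2.86, 8.14 and 6.92 CPM in miR652-KD, against 0.673, 0.785, 1.19 and 0.547 CPM in NTC. All 4 miR652-KD libraries lay above all 4 NTC libraries, and replicates 3 and 4 of miR652-KD were well above the other 2. The log2 difference was 2.60 (SE 0.88, unadjusted p = 0.0142, adjusted p = 0.779, edgeR). All miR652-KD values lay above all NTC values in 2 of 47 members (4.26%), against 2.35% of all genes tested, and below them in 0, against 2.15%.

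Ifit3b, a near-identical neighbour that was left untested by the filter on low counts, bears on that value. It had 1, 1, 4 and 161 counts in miR652-KD, against 22, 0, 2 and 0 counts in NTC, so miR652-KD replicate 4 held most of its reads. Ifit3 shares 51.2% of its 50-base stretches with Ifit3b, and reads could be assigned to either. A count of 0 in NTC replicates 2 and 4 allows up to 0.214 and 0.205 CPM, for counting error only. Summed with Ifit3, the pair stood at 1.70, 2.92, 8.34 and 16.2 CPM in miR652-KD, against 2.15, 0.785, 1.31 and 0.547 CPM in NTC. The groups then overlapped, because NTC replicate 1 exceeded miR652-KD replicate 1, and the log2 difference was 2.61 (SE 0.92, edgeR adjusted p = 0.775). Their neighbours on chromosome 19 were at other levels: Ifit1 averaged 33.6 ± 16.2 CPM in miR652-KD and 23.9 ± 12.2 in NTC, and Ifit2 20.9 ± 3.27 CPM in miR652-KD and 20.2 ± 10.3 in NTC (SD, n = 4). Ifit1 was lowest in NTC replicate 3, at 6.14 CPM, against 26.0 to 32.2 CPM in the other NTC libraries.

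The Mx GTPases, which block viral capsids and polymerases, were near the bottom of the list. Mx2 had 5.996, 1.82, 1.51 and 4.50 CPM in miR652-KD, against 7.33, 5.28, 3.64 and 2.32 CPM in NTC. Mx1 had 9, 24, 35 and 0 counts in miR652-KD, against 180, 26, 24 and 0 counts in NTC, where a count of 0 allows up to 0.173 CPM in miR652-KD replicate 4 and 0.205 CPM in NTC replicate 4. NTC replicate 1 alone held 63.0% of the summed Mx1 CPM. Its log2 difference of -1.97 (SE 1.65, edgeR adjusted p = 0.989) ranged from -2.44 to -0.21 when single libraries were left out, the value nearest 0 being that without NTC replicate 1.

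Members that attach or remove ubiquitin-like proteins and ADP-ribose gave 4 values above 0 and 4 below. Isg15 (ENSMUSG00000035692, chromosome 4, 156199424 to 156200818, mm10), the ubiquitin-like protein that gives the group its best-known name, stood at 7.84, 5.29, 7.49 and 5.66 CPM in miR652-KD, against 7.06, 6.56, 11.51 and 10.3 CPM in NTC. Usp18, which strips ISG15 from proteins and restrains IFNAR signalling, stood at 33.4, 40.1, 36.3 and 35.0 CPM in miR652-KD, against 40.0, 23.0, 29.5 and 40.0 CPM in NTC. Both overlapped, with log2 differences of -0.43 (SE 0.44) and 0.13 (SE 0.22). Trim25, a ubiquitin ligase for RIG-I, had the lowest unadjusted p on the lower side, 0.0634, with 60.3 ± 14.3 CPM in miR652-KD and 80.3 ± 8.79 in NTC (SD, n = 4) and a log2 difference of -0.41. Dtx3l and Parp9, partners transcribed from a shared region of chromosome 16, had log2 differences of 0.04 and 0.10, Parp12 0.15, Parp14 -0.09 and Trim30a -0.05.

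The interferon-inducible GTPases, which attack the vacuoles of intracellular pathogens and respond strongly to interferon gamma, were above 0 in 7 of 8 members, with a median of 0.21, and 0 passed the test. In the guanylate-binding protein gene Gbp2 (ENSMUSG00000028270, chromosome 3, 142620602 to 142638008, mm10) CPM were 107, 116, 130.4 and 138 in miR652-KD, against 85.3, 123, 82.0 and 58.4 in NTC. NTC replicate 2 lay among the miR652-KD values and the other 3 NTC libraries lay below them, with a log2 difference of 0.50 (SE 0.21, unadjusted p = 0.0422, adjusted p = 0.832, edgeR). Gbp3 averaged 66.4 ± 24.1 CPM in miR652-KD and 40.9 ± 14.7 in NTC (SD, n = 4), a log2 difference of 0.70 with an unadjusted p of 0.0518. Gbp7 averaged 176 ± 16.8 CPM in miR652-KD and 158 ± 45.3 in NTC (SD, n = 4), and NTC replicate 4 was lowest at 90.5 CPM. The sum of the 3 Gbp genes ran from 349 to 381 CPM in miR652-KD and from 209 to 328 CPM in NTC, a description of 3 chosen genes with no test.

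Among the 5 IRG GTPase genes, Iigp1 divided the NTC libraries. Not all 5 did so: the NTC values of Irgm2, 88.8 to 117 CPM, lay within its miR652-KD range of 78.4 to 129 CPM. Iigp1 stood at 137, 140.1, 165 and 138 CPM in miR652-KD, against 55.4, 60.2, 181 and 61.6 CPM in NTC. NTC replicate 3 was thus the highest library of all 8, and the other 3 NTC libraries lay below every miR652-KD library. Its log2 difference was 0.69 (SE 0.36, edgeR adjusted p = 0.879) over all libraries, and 0.51 to 1.30 when single libraries were left out. The 1.30 came without NTC replicate 3, the library that went against the difference. There the edgeR unadjusted p was 6.72e-06 and the adjusted p 0.0824, still above the threshold. That p was reached by removing the contrary value and is no separate test. Of the 8 fits that left out a single library, only 1, this one, had an unadjusted p below 0.05. Igtp stood at 143, 169, 204 and 154 CPM in miR652-KD, against 104, 116, 209 and 149.8 CPM in NTC, a log2 difference of 0.21 over all libraries and 0.44 without NTC replicate 3. Ifi47 stood at 235, 212, 222 and 241 CPM in miR652-KD, against 137, 215, 234 and 202 CPM in NTC. The log2 difference of Ifi47 was 0.21 (SE 0.16). In all 5 IRG genes NTC replicate 3 had the highest NTC value, with 197 CPM of Irgm1 and 117 of Irgm2. In 3 of the 5 it was highest of all 8 libraries. Summed, the 5 genes stood at 754, 734, 884 and 783 CPM in miR652-KD, against 490.2, 599, 938 and 667 CPM in NTC. The same library held the lowest IFIT sum, 30.7 CPM, against 45.8 to 85.9 CPM in miR652-KD and 40.2 to 66.9 CPM in the other NTC libraries. Igtp and Irgm2 overlap in annotation on chromosome 11, with 8.01% of Igtp exon bases inside Irgm2 exons.

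**Figure D4:**
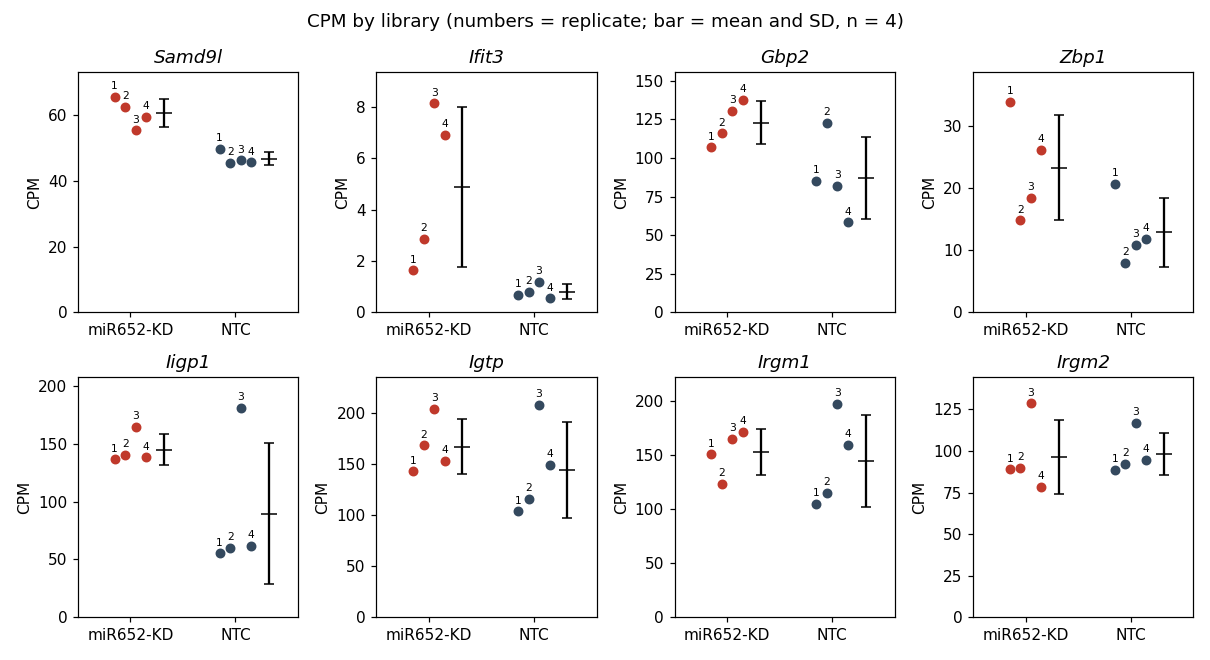
CPM in each library (points, numbered by replicate) with mean and SD (n = 4) for 8 interferon-stimulated genes, miR652-KD left and NTC right. The groups do not overlap in Samd9l and Ifit3, and NTC replicate 3 stands with or above the miR652-KD libraries in Iigp1, Igtp and Irgm1.

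Among the other effectors, 9 of 11 were above 0 and Samd9l had the smallest p. Samd9l (ENSMUSG00000047735, chromosome 6, 3372257 to 3399572, mm10), a restrictor of virus replication and of cell growth whose human counterpart is mutated in inherited marrow failure, stood at 65.5, 62.5, 55.4 and 59.6 CPM in miR652-KD, against 49.8, 45.5, 46.2 and 45.7 CPM in NTC. All 4 miR652-KD libraries lay above all 4 NTC libraries, with little spread in either group. Its log2 difference of 0.38 (SE 0.15) had an unadjusted p of 0.0296 and an adjusted p of 0.803 (edgeR), and ran from 0.34 to 0.43 when single libraries were left out. Bst2 stood at 143, 138, 135 and 149 CPM in miR652-KD, against 95.7, 111, 123 and 137 CPM in NTC, a log2 difference of 0.28 (SE 0.13, unadjusted p = 0.0652). NTC replicate 4 was the single NTC library to reach the miR652-KD range.

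Lgals3bp, Ifi27 and Isg20 overlapped between groups. Lgals3bp stood at 482, 609, 449 and 473 CPM in miR652-KD, against 479, 485, 552 and 587 CPM in NTC, a log2 difference of -0.06 (SE 0.12). Ifi27, a mitochondrial and nuclear-envelope protein, stood at 188, 250.4, 185 and 234 CPM in miR652-KD, against 199, 175, 230.0 and 202 CPM in NTC, a log2 difference of 0.10 (SE 0.13). Isg20 had 109.7, 92.7, 71.6 and 121 CPM in miR652-KD, against 50.3, 119, 102 and 112 CPM in NTC, with NTC replicate 1 lowest. Rsad2 (viperin, which makes a chain-terminating nucleotide) and its neighbour Cmpk2 lie side by side on chromosome 12. Rsad2 averaged 41.7 ± 11.2 CPM in miR652-KD and 47.9 ± 11.7 in NTC, and Cmpk2 44.7 ± 15.7 CPM in miR652-KD and 36.7 ± 19.2 in NTC (SD, n = 4), with NTC replicate 3 at 8.59 CPM of Cmpk2. Xaf1 and Ifi44 had log2 differences of 0.36 and 0.33, and Rtp4 and Ifi35 of 0.10 and 0.01, each with overlap between groups.

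Across libraries the basal members spread about as much as other genes of that level. The highest library exceeded the lowest by a median of 2.07-fold over the 43 basal members, against 2.16-fold over the 9875 tested genes that also averaged 10 CPM or more. The steadiest was Dtx3l, with a 1.31-fold range, followed by Lgals3bp with 1.36-fold. No library held the highest value of more than 8 basal members, the number seen in miR652-KD replicate 4 and in NTC replicate 3. The median deviation of basal members from their own 8-library mean, on the log2 scale, ran from 0.05 to 0.08 in miR652-KD, against -0.10, -0.06, 0.12 and -0.02 in NTC replicates 1 to 4. NTC replicate 3 was therefore highest and the other 3 NTC libraries lowest, and the groups overlapped.

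**Figure D5:**
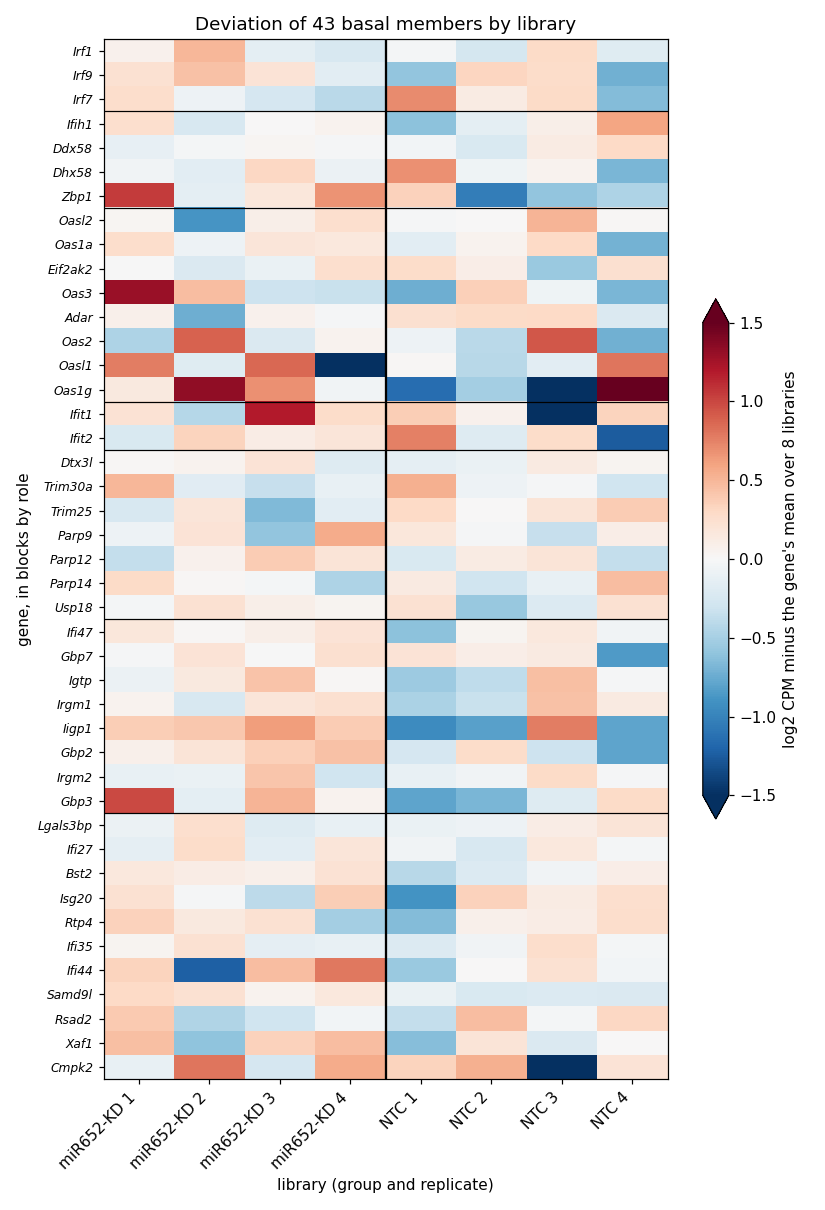
Log2 CPM minus each gene's own mean over 8 libraries (colour, capped at 1.5 either way) for the 43 basal members, in blocks by role, with miR652-KD libraries left of the line and NTC right. The block of GTPase genes is pale to red in the miR652-KD libraries and in NTC replicate 3, and Ifit1, Oas1g and Cmpk2 are darkest blue in NTC replicate 3.

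The rest of the pathway was read from 42 further genes. Of 28 that passed the filter on low counts, 12 were above 0 and 16 below, and 0 were called. The interferon genes themselves were at 0 counts in every library for 9 of 10 genes, among them Ifng and Ifna4, which allows up to 0.151 to 0.214 CPM per library, and Ifnb1 had 26 counts in NTC replicate 2 alone. Receptors and kinases were present: Ifnar1 had 38.9 to 75.8 CPM in miR652-KD and 51.1 to 76.2 in NTC, and Jak1 316 to 370 CPM in miR652-KD and 344 to 386 in NTC. Among the genes with an unadjusted p below 0.05 (edgeR), log2 differences were above 0 for Ifngr2, a chain of the interferon gamma receptor (0.58), Irf3, the factor that first turns on interferon genes (0.41), and Irf8, a factor of the dendritic and monocyte lineages (2.22). They were below 0 for Il10rb, a receptor chain shared with interferon lambda (-0.68), and the STAT inhibitor Pias1 (-0.31), and adjusted p of these 5 was 0.779 to 0.832.

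Markers show what else the sorted samples held. All 10 HSC markers, among them Kit, Procr and Mecom, were detected, with summed levels of 2389 to 2485 CPM in miR652-KD and 2243 to 2673 CPM in NTC. Within that list the members differed in direction at an unadjusted p below 0.05 (edgeR), with log2 differences of 0.62 for Ly6a, 0.60 for Mllt3, -0.34 for Kit and -0.33 for Mecom, and 0 were called. The 10 erythroid markers summed to 38.2 to 2336 CPM in miR652-KD and 2357 to 5736 CPM in NTC, without overlap. The 10 neutrophil and monocyte markers summed to 39.1 to 4155 CPM in miR652-KD and 10.96 to 13282 CPM in NTC. S100a9 stood at 775 and 1186 CPM in the third and the fourth NTC library and at most 11.7 CPM in any other. Mpo and Elane were high in further libraries, with 1979 and 1920 CPM in miR652-KD replicate 1. In NTC replicate 2 they stood at 1095 and 983 CPM. The 7 tested genes of this list had log2 differences below 0, but Csf1r and Ccr2, both untested, went the other way at low levels. Csf1r had 8.18, 3.16, 0.352 and 1.15 CPM in miR652-KD and 0 counts in every NTC library. Ccr2 had 8.04, 1.52, 0 and 0 CPM in miR652-KD, against 0.135, 0, 0 and 0 CPM in NTC. The 10 macrophage and dendritic markers summed to 71.3 to 99.7 CPM in miR652-KD and 35.2 to 90.9 CPM in NTC. The 4 tested among them differed, with log2 differences of 0.99 for Cd68, 0.71 for Clec9a, 0.05 for C1qa and -0.54 for C1qb. Cd68 was higher in every miR652-KD library than in any NTC library (edgeR adjusted p = 0.681). C1qa and C1qb were at 0 in NTC replicate 1. Xcr1 was at 0 throughout and Siglech, of plasmacytoid dendritic cells, was at 0 but for NTC replicate 4 at 0.0683 CPM. The 7 T and NK cell markers summed to 123 to 243 CPM in miR652-KD and 154.6 to 462 CPM in NTC. Nkg7 made up most of that sum, with 163 ± 54.1 CPM in miR652-KD and 290 ± 126 CPM in NTC (SD, n = 4), Klrb1c was also detected, and Cd3e, Cd3g, Cd8a and Ncr1 were at 0 in every library. The 6 B cell markers summed to 44.0 to 92.7 CPM in miR652-KD and 48.8 to 78.4 CPM in NTC, and the 5 megakaryocyte markers to 177 to 312 CPM in miR652-KD and 222 to 379 CPM in NTC. The part of these other cells in the values of the interferon-stimulated genes was not tested. Without NTC replicates 3 and 4, the median log2 difference of the same 47 members was 0.21, with 33 above 0 and 0 called. NTC replicate 3 had the highest median deviation of basal members, 0.12, so a library contrary to the difference was removed. That fit is therefore no separate test, and it kept miR652-KD replicate 1 and NTC replicate 2, where Mpo and Elane were high.

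Direct matches to the knocked-down microRNA were few among the members and, for the 3p arm, few among all tested genes too. UTR length was not taken into account, so the shares below are description only. The mature arms of miR-652 are printed with the seed, bases 2 to 8, in capitals.
mmu-miR-652-3p: aAUGGCGCcacuaggguugug
mmu-miR-652-5p: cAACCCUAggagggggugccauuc
The letters complementary to the 3p seed, GCGCCAT, occurred in the longest annotated 3′ UTR of 0 of 47 tested members and in 1.98% of the 11653 tested genes with such a UTR. Those complementary to the 5p seed, TAGGGTT, occurred in 1 of 47 members, Eif2ak2, and in 8.51% of tested genes. The Eif2ak2 site is shown with its match in capitals, and its gene had a log2 difference of -0.05.
Eif2ak2 (minus strand of chromosome 17): ctaaaaactctgcaaTAGGGTTtttttttt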

How the data were processed

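Per the submitters' processing notes, HISAT2 2.1.0, HTSeq 0.11.2 and DESeq2 were used with the mm10 build. No source used here gives the annotation release or strand setting. The deposited values are whole-number read counts per gene. Beside 55487 genes, a file carries 5 HTSeq summary lines, which were kept out of library sizes. Reads assigned to no gene came to 9.69% to 11.07% in miR652-KD and 10.39% to 16.94% in NTC. Identifiers were matched without version to GENCODE M21 (55394 found). Smart-seq2 has no molecular identifiers, so floors, set at 3 counts, cover counting error only. Without strand, overlapping genes cannot be separated.

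CPM used gene totals alone. Groups were compared in R 4.3.3 by edgeR 4.0.16 after TMM scaling, filtering by filterByExpr (minimum count 10, total 15) and robust quasi-likelihood fits on 14360 genes. SE is the log2 difference over the square root of F. This fit and 2 alternatives, DESeq2 1.42.0 and limma 3.58.1 (voom), were tested on simulated data. Further alternatives were other scalings and filters, a replicate block and left-out libraries. Members were chosen, like the lists, with earlier results of these data known. Values per library were given for members with an unadjusted p below 0.05 or no overlap, the 6 highest per kilobase, those under 10 CPM and 9 key roles. Other genes with values per library (Iigp1, Oas1g, Oas3) were chosen after their values were seen. The values of 1 pathway gene are not reported here.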

Additional observations from a re-analysis of the deposited data

Results flagged for a closer look

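In 12 of 96 member groups, the highest or lowest library stood apart from the other 3 by Dixon's criterion. Chance meets it in about 1 in 20 groups of independent, normally distributed values. These groups share the same libraries and CPM need not be normal, so no excess can be read from the count. In Iigp1 both groups were led by replicate 3, with 165 CPM in miR652-KD (next 140.1) and 181 CPM in NTC (next 61.6). In NTC, Oasl2 was high in replicate 3 at 153 CPM, Samd9l in replicate 1 at 49.8 CPM and Oas1g in replicate 4 at 28.97 CPM. Mx1 in NTC replicate 1, at 12.1 CPM, was far above the next NTC library. NTC replicate 4 was low for Gbp7, at 90.5 CPM, and for Adar, at 23.0 CPM. In miR652-KD, replicate 2 was low for Xaf1, at 28.3 CPM, and for Adar, at 16.1 CPM. Ifit3b was high in miR652-KD replicate 4 at 9.29 CPM and in NTC replicate 1 at 1.48 CPM. The share of reads assigned to no gene was 16.94% in NTC replicate 1, against at most 11.35% in the other NTC libraries.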

How the results depend on the processing

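No member was called in any of 19 alternative fits, and the lowest adjusted p was 0.0627, for Ifit3 with DESeq2. Over all genes, 6 were called, against 131 with DESeq2, 0 with the replicate block, 0 without NTC replicates 3 and 4, and 0 to 0 when single libraries were left out. Same-numbered libraries correlated at -0.0497 to -0.0139 in their deviations from the group mean over the tested genes. That shows no shared pattern by number, but it cannot exclude pairing, which the labels do not describe. Without NTC replicates 3 and 4 the median log2 difference was 0.21 for tested members and 0.22 for basal members, against 0.10 in both with all libraries. NTC replicate 3 had the highest median deviation of basal members, so the larger medians are no separate test. Direction turned in 21 of 47 members in at least 1 fit that left out a single library, with main log2 differences of up to 0.33 in size. Without NTC replicate 3, Oas1g was -0.02 (1.78 without NTC replicate 4) and Cmpk2 -0.04. Without those 2 libraries Lgals3bp was 0.070, Ifih1 0.40 and Ddx58 0.11. Ifih1 was 0.0093 with upper-quartile scaling, 0.038 with limma-voom and 0.037 with the replicate block, and Eif2ak2 was 0.025 with limma-voom. Leaving out single libraries gave -0.16 to 0.0048 for Lgals3bp, -0.062 to 0.23 for Irf1, -0.17 to 0.18 for Isg20, -0.19 to 0.23 for Ifih1, -0.15 to 0.020 for Ddx58 and -0.21 to 0.024 for Eif2ak2. The causes were not tested. Summing Ifit3 with Ifit3b, and Oas1a with Oas1g, was chosen after seeing the data. Depth limits Mx1, Ifit3 and Ifit3b, which had under 30 counts in most libraries.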
